A study of Mus musculus with 3 samples.

Results

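The core spliceosome genes are the protein genes of the small nuclear ribonucleoproteins (snRNPs) and of their closest partners. They were chosen by name from a table of exonic parts, which are the stretches of exon between neighbouring annotated exon boundaries. A gene was included when its symbol starts with Sf3a or Sf3b and a digit, with Snrp, Prpf, U2af or Luc7l, or with Lsm and a digit, and names marked as pseudogenes by -ps were left out. Such names also take in genes outside the spliceosome itself, such as Lsm10 and Lsm11 (U7 snRNP) and Lsm14a (P bodies) with its relative Lsm14b. The rule gave 49 genes with 1070 exonic parts, of 52041 named genes with 469293 parts in all. Another 5 genes with such names (Snrpa1, Sf3b3, Snrpn, Lsm3 and U2af1l4) share a merged group with overlapping genes in the table and have no value of their own.

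The RNA came from skeletal muscle of mice aged 12 weeks, and the labels do not say which muscle. The study used CRISPR/Cas to make knock-in mice that carry c.T1613C (p.I538T) in Rbm20, the counterpart of human c.T1607C (p.I536T). The 3 libraries are a wild type, a heterozygote and a homozygote, and strain, sex and the number of animals behind each library are not in the labels. With 1 library per genotype no difference has a replicate check, no test was made, and the intervals below cover counting error only, because reads were amplified without molecular identifiers. A level that is low in whole muscle cannot be split into fewer cells of a type and less RNA per cell.

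A spliceosome is built anew on each intron. The U1 snRNP first pairs with the 5′ splice site, U2AF and the U2 snRNP then mark the 3′ splice site and the branch point, and the U4/U6.U5 tri-snRNP joins before the catalytic centre forms. The Sm proteins form the ring around most of the small nuclear RNAs. Several of the related LSm proteins form rings on U6 RNA and, in another combination, on messenger RNAs that are being degraded. RBM20 is a splicing regulator of striated muscle best known for skipping exons of titin, so this set describes the general machinery beside a mutated regulator. Many genes of this machinery also carry exons whose use sends their own transcripts to nonsense-mediated decay (NMD).

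Inclusion reads totalled 239837797 in the wild-type, 265358773 in the heterozygous and 215923385 in the homozygous library, and between 962 and 1001 of the members' parts held 10 or more reads. Fast-fibre markers such as Myh4 and Tnnt3 were abundant in each library, as the tissue label says. Their list of 8 genes, which also holds Acta1 and Ckm, summed to 139954 to 182339 reads per 1000000 inclusion reads (RPM). The libraries differed in other tissue markers. Here and below, runs of 3 values are in the order wild type, heterozygous, homozygous. The 8 slow-fibre markers summed to 1895 RPM in wild type, 704 in the heterozygote and 80.5 in the homozygote. The 6 fat markers summed to 3581, 7318 and 2183, and the 6 fibroblast and tendon markers in the table to 1390, 1864 and 857. The same sums were 273, 353 and 151 for 6 immune, 75.5, 83.8 and 57.9 for 4 endothelial, 121, 146 and 43.98 for 5 Schwann cell, 12.2, 10.3 and 10.9 for 4 satellite cell, and 7159, 8789 and 4493 for 5 red blood cell markers. The part of these differences in the results below was not tested. Rbm20 itself was at 13.0, 10.8 and 2.97 RPM, a level that does not check a point mutation.

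The sequences below are the alternative stretches on which the PSI results turn, cut from GENCODE M21 transcripts on the GRCm38 build and written 5′ to 3′ along the transcript. PSI (percent spliced in) is the share of transcripts that include a part, estimated from reads inside it and reads on junctions that skip it. The first pair are the mutually exclusive exons of U2af1, which encodes the U2AF subunit that contacts the AG of the 3′ splice site. The upstream exon lies at chr17:31652502-31652568 and the downstream exon at chr17:31651646-31651712, both on the minus strand. Capitals mark the 23 bases that differ, and 44 of 67 bases (65.7%) are identical.
U2af1 upstream exon: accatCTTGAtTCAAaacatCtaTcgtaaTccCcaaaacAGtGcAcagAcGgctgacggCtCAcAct
U2af1 downstream exon: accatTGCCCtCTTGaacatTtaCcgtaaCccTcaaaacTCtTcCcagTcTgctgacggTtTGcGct

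The next lines are coding stretches of Prpf6 and of Prpf40b, a homologue of a yeast U1 snRNP protein. Prpf6 encodes a scaffold protein of the tri-snRNP, and its 275 skipped bases are the coding parts chr2:181616077-181616095, chr2:181620569-181620647 and chr2:181621787-181621963 on the plus strand, joined, with the middle one in capitals. The Prpf40b lines are adjoining stretches of 1 exon on the plus strand, chr15:99315480-99315539 and chr15:99315540-99315581. Capitals there mark the alternative 3 bases at the start of that exon and the alternative 12 bases at its end.
Prpf6 skipped stretch: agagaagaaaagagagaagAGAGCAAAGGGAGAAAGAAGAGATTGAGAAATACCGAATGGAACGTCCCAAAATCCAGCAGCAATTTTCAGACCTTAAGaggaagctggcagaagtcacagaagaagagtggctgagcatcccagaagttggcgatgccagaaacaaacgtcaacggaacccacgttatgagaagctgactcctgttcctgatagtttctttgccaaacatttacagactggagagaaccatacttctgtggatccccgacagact
Prpf40b 3-base part: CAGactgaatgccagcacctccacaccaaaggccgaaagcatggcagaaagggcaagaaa
Prpf40b 12-base part: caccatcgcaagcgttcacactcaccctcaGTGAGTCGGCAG

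The last lines are exons of Luc7l2, a mammalian homologue of yeast Luc7, the U1 snRNP protein that takes part in choosing 5′ splice sites. The coding exon lies at chr6:38598785-38598814 and the exon found only in transcripts annotated for NMD at chr6:38571042-38571088, both on the plus strand. Capitals mark each exon between 10 bases of its neighbours. The coding exon has 30 bases, a multiple of 3, and the NMD exon has 47, which is not.
Luc7l2 coding exon: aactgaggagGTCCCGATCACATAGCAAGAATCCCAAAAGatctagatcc
Luc7l2 NMD exon: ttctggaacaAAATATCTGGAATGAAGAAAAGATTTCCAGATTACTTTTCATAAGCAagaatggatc

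Core spliceosome genes took a small share of each library. Their inclusion reads were 0.188% of all inclusion reads in wild type, 0.193% in the heterozygote and 0.166% in the homozygote, and the counting intervals of these shares do not overlap. Their order depended on the total used: with the 20 most abundant genes left out of it the shares were 0.287%, 0.282% and 0.275%, so the heterozygote was below wild type and the homozygote closer to both. Of the 49 genes, 46 reached 5 RPM in at least 1 library. The others were Lsm11, a U7 snRNP protein (0.684, 0.241 and 0.421 RPM in wild type, heterozygous and homozygous), Lsm14b, and Snrpert, which is annotated as a processed pseudogene and had 1, 30 and 20 reads.

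Levels were compared between genes only per length, as reads per 1000 bases and 1000000 reads. On that scale the Sm core stood highest, with a median over its 7 genes of 22.5 in wild type, 18.4 in the heterozygote and 16.9 in the homozygote, against 2.32, 2.56 and 2.02 for all 9427 genes measured. Snrpb, which encodes the ring proteins SmB and SmB′, was the highest at 48.3, 53.9 and 47.4, and Snrpd1 (SmD1) the lowest of the ring at 6.07, 6.47 and 5.46. The libraries kept these genes in the same positions at both ends of the group. The Sm genes are short, from 861 (Snrpf) to 3442 exonic bases (Snrpd3), and reads were uneven along genes such as Prpf39. The part of length and of uneven reads in the order of the groups was not tested. Processed copies of Sm and LSm genes exist in the mouse genome, and the sources used here do not say how reads matching several places were counted, so these levels are uncertain to that extent.

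The 10 measured LSm genes had medians of 7.22, 8.19 and 7.10 per 1000 bases and 1000000 reads, and Lsm4, a subunit of both LSm rings, was the highest at 39.5, 44.98 and 42.3. The U1 group, the U2 group and the tri-snRNP group were lower, with wild-type medians of 2.91, 2.83 and 2.34. Here the U1 group also holds alternative splicing factors, the U2 group U2AF, and the tri-snRNP group proteins of spliceosome activation. Within the U2 group, Sf3b6 (p14, which contacts the branch site) was at 12.9 in wild type and Sf3a1, a subunit of the SF3a complex, at 0.606. Both belong to the U2 snRNP, yet their RNA levels differed widely on this scale, and over coding parts alone the gap was wider, with Sf3b6 at 44.4 and Sf3a1 at 0.540.

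**Figure D1:**
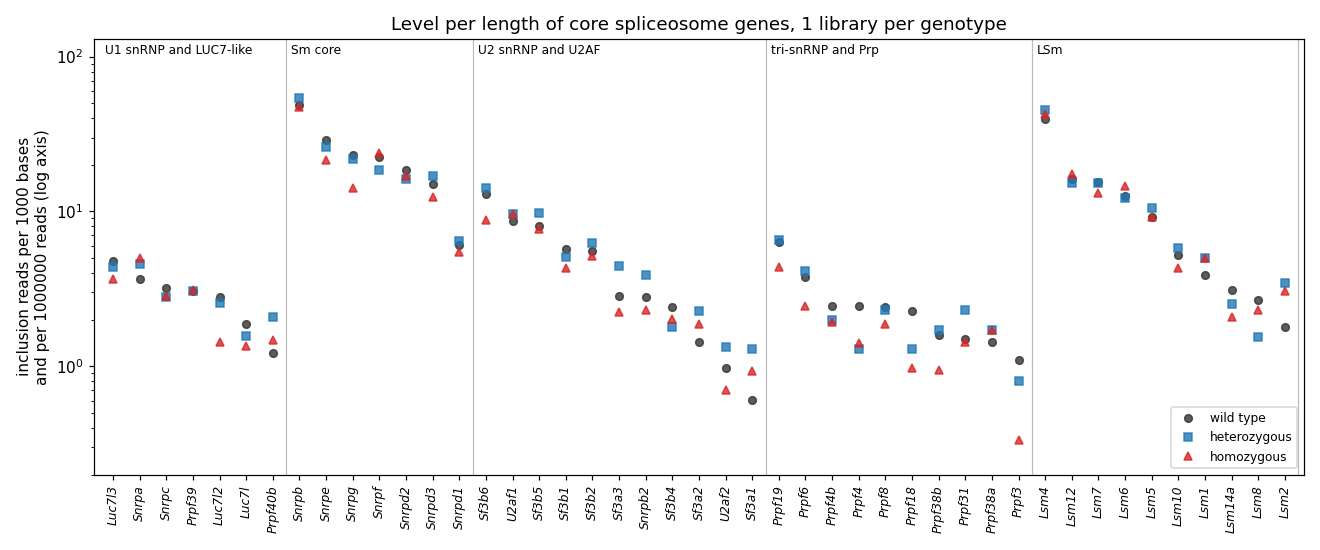
Level of 45 of the 46 measured genes (log axis: inclusion reads per 1000 bases and 1000000 reads) by role group, with 1 point per library. Snrpb at 48.3 and Lsm4 at 39.5 were the highest of their groups in wild type, and Prpf3 in homozygous muscle, at 0.336, was the lowest point.

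Between homozygous and wild-type muscle, 1 of 46 members was higher and 7 were lower by 1.5-fold or more. Of all 9427 genes, 6.74% were higher and 24.0% lower by that rule (30.8% together), so the members' 8 of 46 was a smaller share than the background. The median log2 ratio of RPM + 1 was -0.21 for members and -0.18 for all genes. With median-of-ratios scaling, which moved the all-gene median to 0.04, the members' split became 3 higher and 3 lower, so the excess of lower calls depended on the scaling.

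The lower genes lay mostly in the tri-snRNP group, where 5 of 10 passed 1.5-fold and the median was -0.56. That group takes in activation proteins, so the count is not one of tri-snRNP subunits alone. Prpf3, a protein of the U4/U6 snRNP, was at 11.4 RPM in wild type, 8.31 in the heterozygote and 3.49 in the homozygote, a log2 ratio of homozygous to wild type of -1.47. It was lower in 23 of the 24 parts with 10 or more reads, and on the median-of-ratios scale the ratio was -1.29.

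Prpf18, a factor of the second catalytic step, was at 19.3, 10.9 and 8.26 RPM, and the homozygous ratio was -1.13. All 21 of its parts with 10 or more reads were lower in homozygous than in wild-type muscle. Prpf4, the partner of Prpf3 in the U4/U6 snRNP, was at 19.3, 10.2 and 11.1 RPM (-0.74), with all 15 such parts lower, though on the median-of-ratios scale it fell short of 1.5-fold at -0.53. For Prpf18 and Prpf4 the heterozygous library lay with the homozygous one, and for Prpf3 it lay between the others.

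Prpf38b was at 16.8, 18.02 and 9.96 RPM (-0.70), and Prpf6 at 29.0, 31.7 and 18.7 (-0.61). In both, the heterozygous library was close to wild type and the homozygous library alone was low. Their calls depended on the summary used, since with median-of-ratios scaling Prpf38b was at -0.50 and Prpf6 at -0.40, short of 1.5-fold. With the median over parts in place of the sum, Prpf38b turned to 0.16. Prpf8, the central protein of the U5 snRNP, was at 33.4, 32.0 and 26.0 RPM, and Prpf31, a U4/U6 protein, at 13.1, 20.2 and 12.5, and neither passed 1.5-fold in this pair on the sum over parts. For Prpf8 the median over parts gave -0.99, past the rule, and 40 of its 46 parts with 10 or more reads were lower.

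Exonic length moved with these ratios. Among the 14 longest members (5704 bases or more) the median homozygous ratio was -0.36, against -0.26 for all genes of that length, and among the 18 shortest (up to 3002 bases) it was -0.13, as in all genes of that length. The genes Prpf3, Prpf18 and Prpf4, of 5310 to 5671 bases, belong to the middle group. Its median was -0.13 for the 14 members in it and -0.15 for all genes. The part of length in the members' ratios was not tested further.

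Outside the tri-snRNP group, Luc7l2 was at 47.8 RPM in wild type, 43.9 in the heterozygote and 24.8 in the homozygote (-0.92), lower in 27 of 32 parts. Snrpg (SmG) was at 72.7, 68.9 and 44.8 (-0.69), the sole Sm gene past the rule, and it missed 1.5-fold at -0.47 on the median-of-ratios scale. Lsm2, a subunit of both LSm rings, was the member that was higher: 11.8, 22.7 and 20.2 RPM (0.72). It was higher in 12 of 13 parts with 10 or more reads, while the median over all its parts, many of them without reads, gave -0.24. In Snrpa, which encodes the A protein of U1, the values were 19.9, 24.8 and 27.3 RPM (0.44), short of the rule, but past it with median-of-ratios scaling (0.65). On the sum over parts, all 11 genes of the U2 group lay between -0.54 (Sf3b6) and 0.55 (Sf3a1), and the other LSm genes at 5 RPM or more between -0.57 (Lsm14a) and 0.35 (Lsm1). Other summaries added calls in these groups. Sf3a1 passed 1.5-fold with median-of-ratios scaling (0.74), with the median over parts (0.83) and over coding parts alone (0.95). With the median over parts, Sf3b6 (-0.74), U2af2 (-0.74) and Sf3b1 (-0.62) passed as lower, and Lsm1 (0.80) and Prpf40b (0.71) as higher. Luc7l2 kept its call on the median-of-ratios scale (-0.71) and missed it over coding parts alone (-0.56).

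**Figure D2:**
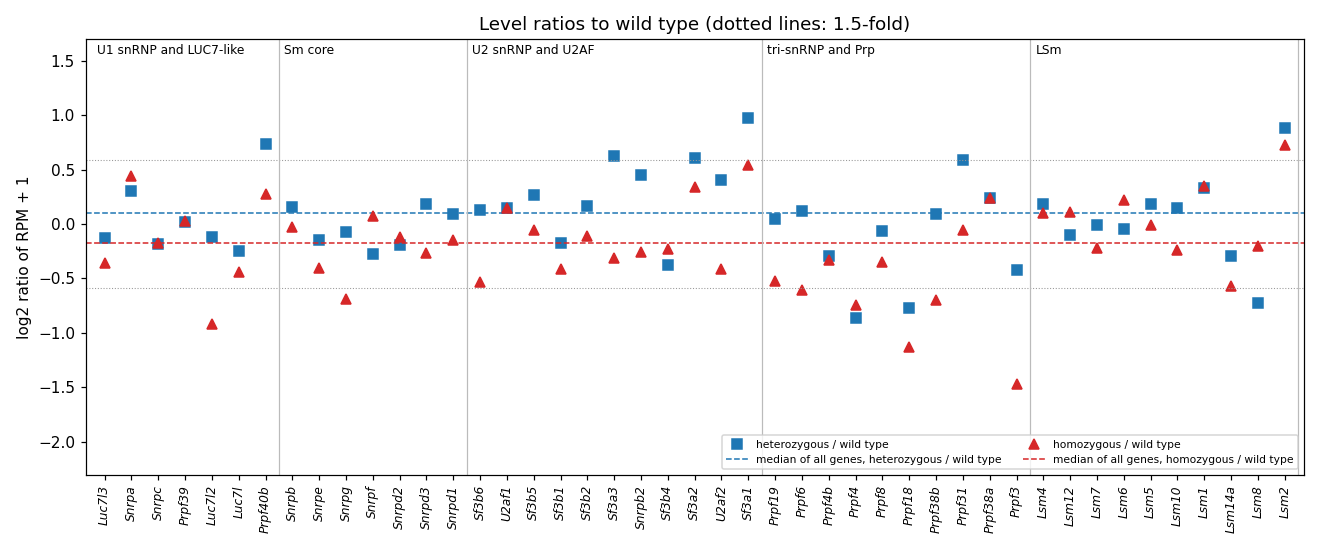
Log2 ratio of RPM + 1 to wild type for 45 of the 46 measured genes in heterozygous (squares) and homozygous (triangles) muscle, with the median of all genes (dashed) and 1.5-fold (dotted). Prpf3 at -1.47 and Prpf18 at -1.13 lie lowest, and Sf3a1 in the heterozygous library, at 0.97, lies highest.

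Between heterozygous and wild-type muscle, 6 members were higher and 3 lower, where 16.4% of all genes were higher and 8.86% lower (25.3% together). The medians were 0.09 for members and 0.10 for all genes, and with median-of-ratios scaling the split was 3 higher and 3 lower. All 3 subunits of SF3a, the complex that completes the U2 snRNP, were among the higher genes. Sf3a1 was at 5.47 RPM in wild type, 11.7 in the heterozygote and 8.45 in the homozygote, a heterozygous ratio of 0.97. Sf3a2 was at 6.81, 10.9 and 8.87 (0.60), and Sf3a3 at 15.7, 24.6 and 12.4 (0.62). In Sf3a2, 21.01% to 31.3% of the reads lay in parts that overlap Plekhj1 on the other strand, and without those parts the ratio was 0.67. On the median-of-ratios scale Sf3a1 kept its call at 0.89, while Sf3a2 (0.53) and Sf3a3 (0.54) fell short.

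The other higher genes were Lsm2 (0.89), Prpf40b (15.4, 26.4 and 18.9 RPM, 0.74) and Prpf31 (0.59, but 0.51 with median-of-ratios scaling). The lower genes were Prpf4 (-0.86), Prpf18 (-0.77) and Lsm8, a subunit of the U6 ring (15.4, 8.89 and 13.3 RPM, -0.73). Homozygous against heterozygous muscle shares a library with each of the other pairs. In it 0 members were higher and 10 lower, where 5.42% of all genes were higher and 30.2% lower (35.7% together), and median-of-ratios scaling gave 2 higher and 2 lower. Of these 10, 4 were in the U2 group and 4 in the tri-snRNP group, with Prpf3 (-1.05), Sf3a3 (-0.94) and U2af2 (-0.82) the lowest. The highest ratio was that of Lsm8, 0.53, short of the rule. With median-of-ratios scaling Lsm8 (0.81) and Snrpf (0.64) passed as higher, Prpf3 (-0.80) and Sf3a3 (-0.65) stayed lower, and U2af2 (-0.55) missed the rule.

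Of the other genes of the pathway, 50 of 54 listed spliceosome proteins outside the name rule had a row. In homozygous against wild-type muscle 4 were higher (8%) and 2 lower (4%) by 1.5-fold or more, against 6.74% and 24.0% of all genes. Heterozygous against wild-type muscle gave 6 (12%) and 5 (10%), against 16.4% and 8.86%. Homozygous against heterozygous muscle gave 3 (6%) and 8 (16%), against 5.42% and 30.2%. Of 9 measured genes that assemble snRNPs, such as the SMN complex, 1 was lower and 0 higher in homozygous against wild-type muscle. In heterozygous against wild-type muscle 0 passed 1.5-fold, and between the mutant libraries 1 was higher and 0 lower. The same shares of all genes apply to these counts. By the PSI rule given below, 18 of the 50 spliceosome genes had a called part when the homozygote was set against wild type. The number was 14 for the heterozygote against wild type, and 13 between the mutant libraries. Over all genes with a measured part the shares were 23.6%, 24.3% and 23.4%, and over genes at 5 RPM or more with 10 or more measured parts 44.1%, 45.5% and 43.7%, so the reading depends on the background.

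For 2 genes the sum over parts hid where the reads lay. Prpf39, a U1-associated protein, was at 51.9, 52.5 and 53.0 RPM over all its parts. However, 74.7% of its reads in wild type, 84.1% in the heterozygote and 81.4% in the homozygote lay in parts that overlap Fkbp3 on the other strand. The library kit does not mark strand, so reads of these genes cannot be told apart there. Without those parts Prpf39 was at 13.2, 8.34 and 9.87 RPM, log2 ratios to wild type of -0.60 in the heterozygote and -0.38 in the homozygote, and the first of these passes 1.5-fold. Snrpf, the gene of SmF, had 59.8% to 60.9% of its reads in such parts, but its ratios to wild type without them (0.09 in the homozygote and -0.27 in the heterozygote) were close to those with them (0.08 and -0.27).

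Lsm14b, a relative of the P-body protein Lsm14a, had 783 reads in wild type, 781 in the heterozygote and 207 in the homozygote. In the homozygous library all 207 lay in the last long UTR part, which held 443 and 465 reads in the others, and each of the other 13 parts had 0 reads. In wild type, coding parts held from 9 to 49 reads and in heterozygous muscle from 0 to 61. A count of 0 in a part does not exclude a low level at this depth.

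**Figure D3:**
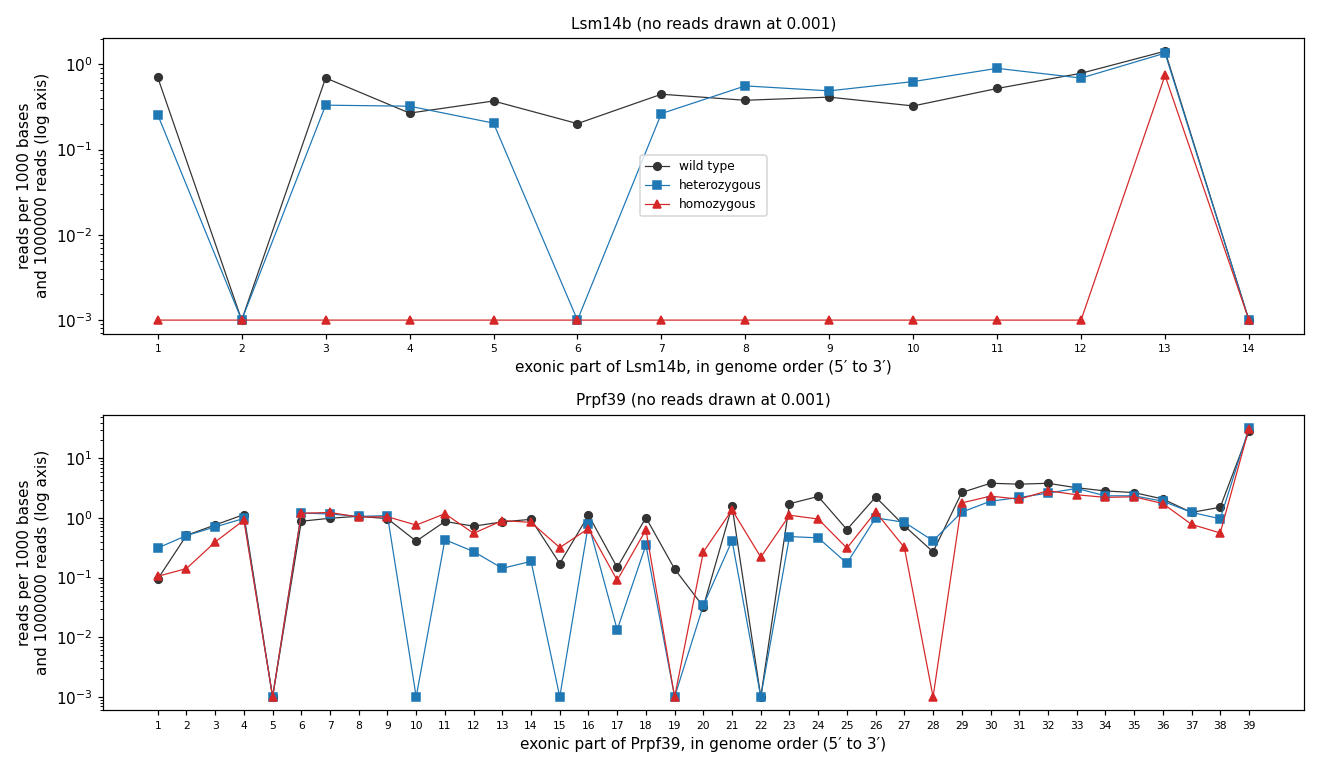
Reads per 1000 bases and 1000000 reads (log axis, zeros drawn at 0.001) along the parts of Lsm14b and Prpf39 in each library. In homozygous muscle the Lsm14b reads, 207 in all, sit in 1 part near the 3′ end, and in Prpf39 the last part stands above all others in each library.

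Most parts of these genes were constitutive. Of 947 parts measured (10 or more inclusion plus exclusion reads) in all 3 libraries, 65.6% had no exclusion read in any, against 63.6% of all parts in the table. PSI lay between 10% and 90% in all 3 libraries in 54 parts (5.70%), against 3.51% of all parts. The U1 group held 32 of the 54, or 13.0% of its 246 parts, and the Sm core held 0 of 70. Snrpb, known in human cells to control its own level through an NMD exon, had 0 parts in that range.

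The call rule asked for a PSI difference of at least 20 points and for 10 or more reads on each side. Homozygous against wild-type muscle gave 40 of 953 measured member parts, or 4.20%, against 5.57% of all parts. Of these, 19 were higher and 21 lower, where 2.63% and 2.94% of all parts were. These parts lay in 13 of 48 genes, against 23.6% of all genes with a measured part. Heterozygous against wild-type muscle gave 40 of 977 parts in 16 of 48 genes, against 5.78% and 24.3%, with 14 higher and 26 lower against 2.57% and 3.21%. Homozygous against heterozygous muscle gave 38 of 953 in 15 of 49 genes, against 5.52% and 23.4%, with 26 higher and 12 lower against 2.96% and 2.56%. The single part of Snrpert was among these, at 14.6% in heterozygous (30 inclusion and 56 exclusion reads) and 100% in homozygous muscle (20 and 0). This processed pseudogene has no other part, so its exclusion reads do not show a choice between exons of its own.

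The gene counts need a matched background, since members had a median of 17 measured parts and all genes 4. Among genes at 5 RPM or more with 10 or more measured parts, 12 of 39 members (30.8%) had a called part in homozygous against wild-type muscle, against 44.1% of all such genes. The shares were 35.9% and 45.5% in heterozygous against wild-type muscle, and 33.3% and 43.7% in homozygous against heterozygous muscle. Members were thus below the share of all such genes in each pair, without a test of that difference. The U1 group held 19 called parts of 246 measured (7.72%), 17 of 249 (6.83%) and 24 of 247 (9.72%) in the 3 pairs. All parts gave 5.57%, 5.78% and 5.52%, a background not matched for the kind of part. In the first pair most U1 calls lay in parts found only in NMD or other non-coding transcripts. For those kinds all parts gave 13.7% and 10.9%, and no matched share was computed for the U1 group. Parts that share their exclusion reads are counted singly in all of these shares. With such parts taken as 1, the calls over all members were 27, 27 and 26 instead of 40, 40 and 38. No share of all parts was computed for that count. The Sm core held 0 of 71, 0 of 70 and 0 of 70 measured.

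The calls were spread unevenly over the kinds of part. Among coding parts, 5 of 493 (1.01%) were called in homozygous against wild-type muscle, against 3.27% of all coding parts. Among NMD parts, which lie in transcripts annotated for NMD and in no protein-coding transcript, it was 8 of 35 (22.9%), against 13.7% of all such parts. Of these 8, 6 also lie in retained-intron or other non-coding transcripts. UTR parts (12 of 175, 6.86% against 6.19%) and parts of non-coding transcripts such as retained introns (14 of 148, 9.46% against 10.9%) were near their backgrounds. In heterozygous against wild-type muscle the coding share was 1.58% against 3.54%, and NMD parts gave 7 of 35 against 12.2%. Partly coding parts, in which a coding sequence covers only some of the bases, gave 3 of 104 (4.38% of all such parts). UTR parts gave 13 of 181 (6.55%) and non-coding parts 9 of 152 (11.0%). In homozygous against heterozygous muscle the counts were 5 of 494 coding (3.57%), 4 of 103 partly coding (4.11%), 9 of 173 UTR (6.32%), 9 of 34 NMD (12.3%) and 11 of 149 non-coding parts (10.2%). The NMD counts are small and their parts belong to few genes (4, 6 and 3 in the 3 pairs).

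**Figure D4:**
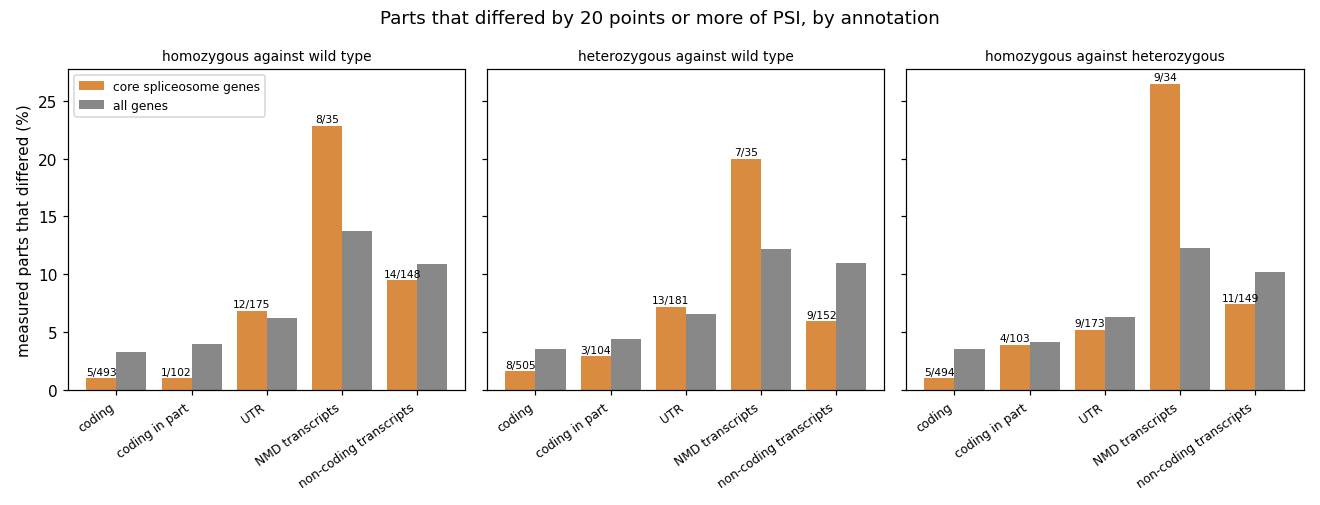
Share of measured parts whose PSI differed by 20 points or more, by annotation and pair of libraries, for core spliceosome genes (orange, with counts) and all genes (grey). Coding parts of the members were called in 1.01% (5 of 493) and NMD parts in 22.9% (8 of 35) in homozygous against wild-type muscle.

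In the U1 group, Prpf40b differed in 2 short coding stretches. Its 3-base part, printed above, was included at 19.8% in wild type (30 inclusion and 119 exclusion reads), 56.4% in heterozygous (119 and 90) and 58.1% in homozygous muscle (81 and 57). The homozygous difference was 38.4 points (95% counting interval 27.4 to 48.1). The 12-base part at the other end of the exon had 0 inclusion reads in wild type against 103 exclusion reads, and PSI of 30.9% in the heterozygote and 19.8% in the homozygote. In both parts wild type was lowest and the mutant libraries were higher. At 19.8 points the 12-base part was just below the rule in homozygous muscle, while in heterozygous muscle it passed. A pair of adjoining parts elsewhere in the gene, found only in non-coding transcripts, went the other way, at 68.8%, 20.9% and 42.7% and at 66.7%, 17.5% and 28.2%, highest in wild type.

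In Luc7l2 the 47-base NMD exon was included at 40.0% in wild type, 1.53% in the heterozygote and 29.5% in the homozygote. Only 3 inclusion reads against 142 exclusion reads stood behind the heterozygous value. The heterozygous difference was -38.5 points (-48.1 to -29.1), and the homozygous difference of -10.5 had an interval that includes 0 (-23.3 to 3.0). The 30-base coding exon was at 60.7%, 42.2% and 63.4%, so it too was lowest in the heterozygous library. Its heterozygous difference from wild type, -18.5 points (-26.9 to -9.7), was under the rule, while the 21.1 points between the mutant libraries passed. A 90-base NMD exon, at 71.8%, 67.8% and 32.9%, was instead lowest in the homozygous library, a difference from wild type of -38.9 points (-53.8 to -20.5) on 42 reads in homozygous muscle.

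The other LUC7-like genes also carried alternative parts. In Luc7l a retained-intron part was at 26.9%, 12.9% and 52.7%, highest in the homozygous library (25.8 points above wild type, 15.6 to 35.6). A 36-base stretch of Luc7l, of which only some bases are coding, was at 97.6%, 63.1% and 100%, low in heterozygous muscle alone. In Luc7l3 a 106-base coding exon was at 17.6%, 11.4% and 37.2%, and its homozygous difference of 19.6 points (9.1 to 29.8) was just under the rule.

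Prpf39 had the widest difference between the mutant libraries, 85.8 points in a 53-base UTR part. Its 69-base NMD exon was at 66.3% in wild type, 33.4% in the heterozygote and 100% in the homozygote, with 14, 30 and 0 exclusion reads. The heterozygous difference was -32.8 points and the homozygous 33.7, in opposite directions from wild type. The 53-base UTR part was at 65.9%, 14.2% and 100%, and these parts share their exclusion reads, so they count as 1 event. Further downstream, a 100-base NMD exon was highest in heterozygous muscle, at 33.1%, 74.7% and 23.2%. These parts lie away from the overlap with Fkbp3.

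In the U2 group the printed U2af1 exons were used in opposite ways in each library. The downstream exon was at 87.7% in wild type, 76.7% in the heterozygote and 92.7% in the homozygote, with 916, 928 and 999 inclusion reads. The upstream exon was at 15.3%, 23.7% and 8.96%. Upstream use was 8.4 points higher in heterozygous than in wild-type muscle (5.0 to 11.8) and -6.30 points in homozygous (-9.2 to -3.4), so the mutant libraries lay on either side of wild type. These differences exceed counting error but not the 20-point rule.

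Sf3b1, whose protein holds the branch site, had a 56-base exon found in NMD and retained-intron transcripts, singled out after its values were seen. It was at 31.3% in wild type (322 inclusion and 495 exclusion reads), 10.4% in heterozygous (97 and 584) and 10.7% in homozygous muscle (88 and 514). Both mutant libraries were lower, by differences of -20.9 points (-24.5 to -17.2) and -20.6 points (-24.3 to -16.8), and the depth here was the highest of the called NMD parts shown. A retained-intron part of Sf3a1 was likewise highest in wild type, at 39.0%, 4.80% and 7.51%, on 62, 22 and 27 inclusion reads.

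In the tri-snRNP group, Prpf6 held the coding parts that differed most between homozygous and wild-type muscle. The 3 printed parts had 0 exclusion reads in wild type and in heterozygous muscle and 25 in homozygous muscle, where PSI was 52.0%, 38.4% and 44.4%. The same 25 reads count for all 3 parts, which are therefore 1 event. For the middle exon the difference was -61.6 points (-73.5 to -46.4). The 275 skipped bases are not a multiple of 3. The first printed part, of 19 bases, directly follows a 100-base coding part without an intron between them. That 100-base part and the next exon downstream had 236 and 100 inclusion reads in homozygous muscle and no exclusion reads in any library.

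Prpf4b, a kinase of the tri-snRNP, had a 263-base UTR part at 74.7% in wild type, 33.4% in the heterozygote and 29.1% in the homozygote, a homozygous difference of -45.6 points (-53.2 to -37.1). A nearby 33-base UTR part was at 49.6%, 0% and 18.2%, also highest in wild type, with the same exclusion reads. Another 3 UTR parts of the gene went the other way and were lowest in wild type. They were at 12.9%, 29.3% and 41.9%, at 4.56%, 17.0% and 31.9%, and at 7.60%, 14.8% and 33.7%. In Prpf31 a 516-base part of non-coding transcripts was at 84.2%, 49.5% and 59.0%. A 53-base NMD exon of Prpf38b went the other way, at 19.2%, 25.7% and 53.6%. Among LSm genes, a 102-base UTR part of Lsm10, a U7 snRNP protein, was at 88.8%, 59.4% and 56.4% (homozygous difference -32.5 points, -43.0 to -21.1). In Lsm14b, 6 coding parts were between 37.6% and 50.0% in wild type and at 100% in heterozygous muscle. They share 14 exclusion reads in wild type and are 1 event, and with the Prpf40b parts they made up the 8 coding calls of that pair.

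**Figure D5:**
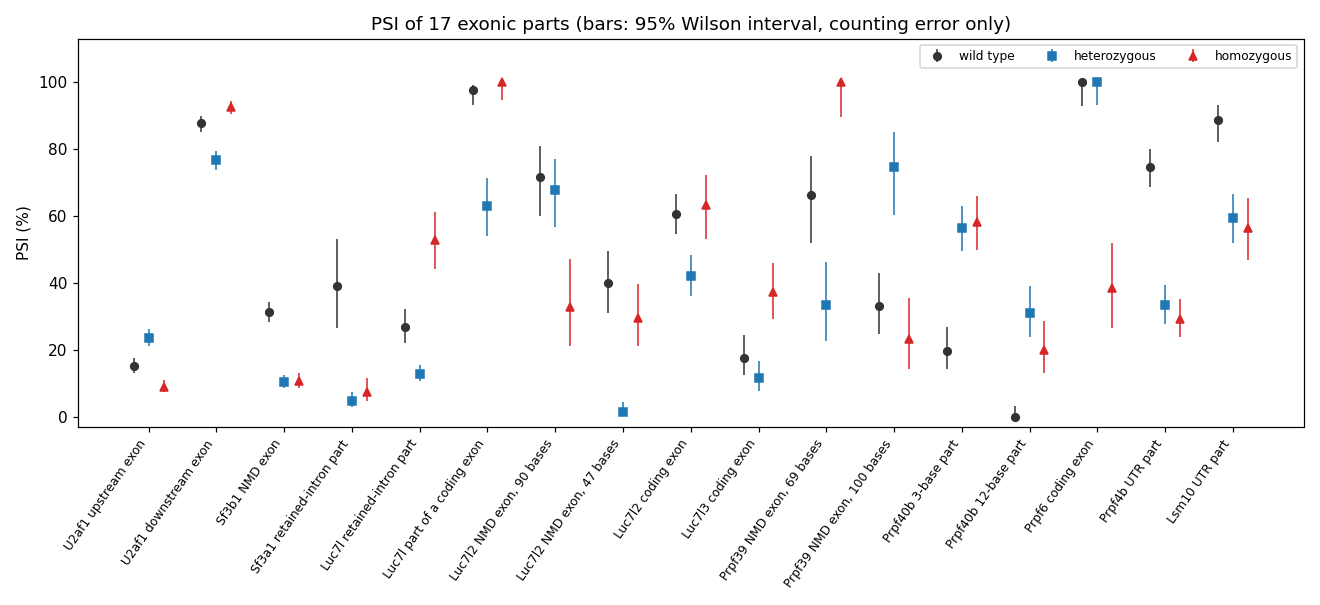
PSI in the 3 libraries for 17 parts of named genes, with 95% Wilson intervals for counting error. The Sf3b1 exon and the Prpf4b UTR part are highest in wild type (31.3% and 74.7%), the Prpf40b 3-base part is lowest there (19.8%), and the U2af1 exons move in opposite directions.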

How the data were processed

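Per the labels, total RNA was made into libraries with SMART-seq v4 and Nextera XT and sequenced on an Illumina NovaSeq. Per the submitters' processing notes, the tools were TopHat2 2.0.14 and Bowtie 1.1.1, besides Trimmomatic 0.32 and cutadapt 1.1, on GRCm38, with no roles given. The authors deposited inclusion and exclusion read counts and a PSI fraction for each exonic part. A signed difference score, wild type minus mutant PSI, was also deposited per the file headers and was recomputed here. The deposited fraction equals (I/(L+131)) / (I/(L+131) + E/131), with I and E the read counts and L the part length, to within 5e-07. Here, gene levels were inclusion reads per 1000000 inclusion reads of the library, with a pseudocount of 1 on the log2 scale and at least 5 RPM in 1 library; per length, they were divided by the summed L + 131. Members and lists were chosen with earlier results of these data known. Intervals were Wilson intervals carried to the PSI scale and Newcombe intervals for differences, at 95%. By rule, named genes were the highest and lowest per length in each role group and genes known for regulated exons. The rule added, in each pair, the 5 furthest apart in level in each direction and the 8 furthest apart in PSI. Of these, Lsm6, Lsm12, Sf3b4 and Prpf19 are not described in the text. Prpf8, Snrpg, Lsm14a and Sf3b1 were described outside the rule. Annotation came from GENCODE M21. On simulated counts the call rule was tested before use. Alternatives were other cut-offs, scalings and part sets. Python 3.11.15, pandas 2.3.3 and numpy 2.4.6 were used. 1 member enters the counts and medians but is not reported here by name. Samples of the other ages named in the labels were not analysed here.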

Additional observations from a re-analysis of the deposited data

How the results depend on the processing

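Counts of called member parts are given for homozygous against wild-type, heterozygous against wild-type and homozygous against heterozygous muscle, in that order. At 10 points they were 80, 71 and 84 of 953, 977 and 953 measured, against 9.77%, 9.84% and 9.46% of all parts. At 100 or more reads they were 14, 13 and 9 (2.17%, 2.57% and 2.25% of all parts). At 30 points they were 21 in the first pair (3.61% of all parts) and 22 in the last (3.56%). Genes with a called part numbered 8, 10 and 4 at 100 or more reads (8.56%, 10.8% and 8.71% of all genes). They numbered 22 at 10 points in the first pair (32.9%), and 8 in the first (17.1%) and 8 in the last pair (17.2%) at 30 points. These shares of all genes are not matched for measured parts per gene. They therefore do not show whether members were called more or less often than other genes. Levels past 2-fold were 2, 0 and 1 of 46 (12.1%, 9.09% and 16.0% of all genes). The median over parts gave 13 calls of 43 in the first pair (41.0% of all genes), and median-of-ratios scaling 4 of 46 in the last (32.0%). The members' share of reads was 0.208%, 0.214% and 0.180% in wild type, heterozygous and homozygous with merged genes left out of the total, and 0.287%, 0.282% and 0.275% with the 20 most abundant genes left out. The cause was not tested. The other 41 recomputed values, all of them counts, stayed within 1.5 times, as did the shares of reads with merged genes left out. The split into higher and lower could still change. For levels in the first pair it went from 1 and 7 to 3 and 3 with median-of-ratios scaling. Of the 41, coding parts only and leaving out parts shared with the other strand were added after seeing the data. No paired analysis was possible because each genotype has 1 library. That single library per genotype, and reads as low as 10 per part, limit every value.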
